A study of Mus musculus with 4 samples.

Results

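The sites described here are those annotated as coding sequence (CDS) among the N6-methyladenosine (m6A) sites mapped in macrophages grown from the bone marrow of 2 wild-type mice and treated with lipopolysaccharide for 3 h. They were taken by the annotation column of each mouse's table, without regard to any measured value. Coding sequence held 17801 of 45668 listed sites in mouse 1 (39.0%) and 18596 of 47747 in mouse 2 (38.9%). At the same nucleotide and strand, 14730 sites were annotated as CDS in both tables.

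m6A is a methyl group on adenosines inside messenger RNA. It is written in the nucleus by a complex around METTL3 and METTL14, mainly within the short motif called DRACH, and it is read by YTH-domain proteins that affect decay and translation of the message. In mammalian mRNA it is best known around stop codons, in 3' UTRs and in long internal exons, where ribosomes also pass over it. The assay, m6A-eCLIP, crosslinks an antibody against m6A to RNA and places a site from the positions where reads start. Lipopolysaccharide is a bacterial cell wall component that activates macrophages through Toll-like receptor 4.

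Per mouse there was 1 library after immunoprecipitation (IP) and 1 of input, both from poly(A)-selected RNA, 4 libraries in all. The labels give wild-type genotype for both animals and no strain, sex or age, and every culture was stimulated, so resting cells are not part of the comparison. The names of both tables also hold the term NTC, whose meaning the labels do not give. Each fold below is the authors' ratio of read starts, IP over input, at 1 base, and the score is their own value per site. Read numbers were not given, so the depth is unknown and a single site has no error of its own. For this reason the value in mouse 1 is always followed by that in mouse 2, in that order, and no p-value is given over 2 animals. Intervals are exact (Clopper-Pearson) 95% intervals on shares of sites. They cover counting error only, and sites of 1 transcript are not independent.

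All 8 macrophage markers examined had listed sites in both mice, but CDS sites were listed for 2 of them, the efferocytosis receptor gene Mertk (3 and 6 sites) and the high-affinity IgG receptor gene Fcgr1 (6 and 6). Of all 7827 genes with a listed site in both mice, 3941 had a listed CDS site in both. Of 45 markers of lymphocytes, neutrophils, mast cells, fibroblasts, endothelium and erythroid cells, 12 had a listed site in both mice, and 3 of these 12 carried a CDS site at a fold of at least 8 in both, beside 42.6% of all genes with a listed site. These were Lck and Cd28, both of T cells, and Vwf of endothelium. A missing site does not give a transcript level, so cell make-up could not be read from these tables.

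The base under the sites and its neighbours are shown first. No genome sequence was used, and the sequence came from RefSeq's GRCm38.p6 table of 300-base windows that run from 250 bases before to 50 bases after annotated gene starts, on either strand. The coordinates of the sites are mm10, which shares its coordinates with that assembly. These windows covered 164 CDS sites of mouse 1 and 162 of mouse 2 with their flanks, a small part of all CDS sites and one that lies near annotated starts. The called base was A at each of the 164 and each of the 162, as it was at every UTR site in the windows. The labels do not say whether the caller lists other bases, so the A alone does not show what the assay marked.

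The 8 sites below are those with the highest mean log2 fold among the CDS sites enriched in both mice whose 5 central bases matched DRACH, that is A, G or T, then A or G, then A, then C, then A, C or T. The capitals mark these 5 bases, the called A being the third of them, and each run is 41 bases, 5′ to 3′, on the strand of the transcript.
Egln1 (chr8:124948355-124948395, minus strand): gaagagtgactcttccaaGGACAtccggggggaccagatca
Akna (chr4:63395116-63395156, minus strand): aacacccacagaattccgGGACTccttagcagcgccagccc
Rnf19b (chr4:129058267-129058307, plus strand): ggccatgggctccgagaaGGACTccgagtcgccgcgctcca
Akna (chr4:63395294-63395334, minus strand): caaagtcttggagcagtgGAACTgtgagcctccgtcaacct
Egln1 (chr8:124948367-124948407, minus strand): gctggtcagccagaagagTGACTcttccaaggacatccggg
Klf7 (chr1:64079241-64079281, minus strand): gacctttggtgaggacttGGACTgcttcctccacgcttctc
Cox10 (chr11:63964207-63964247, minus strand): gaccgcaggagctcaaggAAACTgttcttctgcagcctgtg
Maip1 (chr1:57406828-57406868, plus strand): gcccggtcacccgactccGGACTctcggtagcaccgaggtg

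Egln1 encodes an oxygen-sensing prolyl hydroxylase that marks HIF-1 alpha for decay, and its sites lie 12 bases apart, the first at 24.4 and 81.8 and the other at 20.1 and 44.3. Akna encodes an AT-hook protein, and its first site was at 27.1 and 62.6, the other at 42.1 and 21.2. The sites of the ubiquitin ligase gene Rnf19b (33.02 and 32.2), the transcription factor gene Klf7 (27.1 and 31.8), the heme A synthesis gene Cox10 (24.1 and 29.8) and Maip1 (28.1 and 22.1), whose product sits in mitochondria, were close between the animals. The site with the highest mean fold inside the windows was the strongest CDS site of Ctsa, a lysosomal carboxypeptidase, and it had no match (59.7 and 86.5).

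Another set of CDS sites lay directly at an annotated start, which here means a gene start and not a start codon. In the runs of Samhd1 and Mtx1 the first ATG, the triplet of a start codon, comes after the called A. In Ndufa12 an ATG comes before it, and the run of Gpx4 holds none. Whether these sites lie in translated sequence was not tested. The 4 strongest are shown after Ctsa, with the same 5 places in capitals.
Ctsa, away from a start on its strand (chr2:164833786-164833826, plus strand): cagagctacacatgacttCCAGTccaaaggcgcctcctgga
Samhd1, at a start (chr2:157135073-157135113, minus strand): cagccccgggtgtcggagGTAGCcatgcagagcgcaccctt
Gpx4, at a start (chr10:80053638-80053678, plus strand): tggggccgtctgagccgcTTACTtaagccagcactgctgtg
Ndufa12, at a start (chr10:94199017-94199057, plus strand): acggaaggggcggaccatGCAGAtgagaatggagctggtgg
Mtx1, at a start (chr3:89213887-89213927, minus strand): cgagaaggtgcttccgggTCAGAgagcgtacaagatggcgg

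Samhd1 encodes an antiviral dNTP hydrolase (37.0 and 44.7), Gpx4 the peroxidase that protects membrane lipids (33.2 and 33.8), Ndufa12 a subunit of respiratory complex I (23.5 and 30.8) and Mtx1 a protein of mitochondrial import (20.1 and 28.4). None of the 35 CDS sites of mouse 1 and none of the 31 of mouse 2 that lay within 10 bases of an annotated start on their strand matched DRACH, with upper limits of 10.003% and 11.2%. CDS sites with no annotated start on their strand in the window matched in 29 of 51 cases in mouse 1 (56.9%, 42.2% to 70.7%) and in 30 of 50 in mouse 2 (60.0%, 45.2% to 73.6%). The commonest word there was GGACT with 7 and 9 sites, followed by GAACT with 6 and 5, AGACT with 5 and 4 and GGACA with 4 and 6. Over all CDS sites in windows the match was 25% (18.6% to 32.3%) and 27.2% (20.5% to 34.7%). For comparison, 7.75% of all A in these windows, on both strands, sat in the motif.

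The same reading gave a match at 27 of 32 sites annotated as 3' UTR in mouse 1 (84.4%) and 23 of 29 in mouse 2 (79.3%). It gave 2.42% of 4290 and 2.704% of 4475 sites annotated as 5' UTR. The CDS sites in windows therefore lay between both UTR classes, and their share followed their distance from an annotated start. Sites at a start also had lower folds, with medians of 8.02 and 7.70, against 13.0 and 12.0 for CDS sites with no start on their strand. The part that distance to a start has in the CDS sites outside the windows was not tested.

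A site was called enriched at a fold of at least 8, a log2 fold of 3. By this limit 15615 CDS sites in mouse 1 (87.7%, 87.2% to 88.2%) and 15757 in mouse 2 (84.7%, 84.2% to 85.2%) were enriched, beside 81.7% and 79.1% of all listed sites. The shares for 3' UTR sites were 87.7% and 85.7%, within 1 point of CDS in either mouse. Sites in 5' UTRs were at 64.7% and 61.9%, lower than CDS in both animals by more than the mice differed. The median fold of CDS sites was 17.0 in mouse 1 and 16.4 in mouse 2, the quartiles were 10.03 and 30.1 in mouse 1 and 9.94 and 29.8 in mouse 2, and the highest values were 659 and 639. The lowest listed CDS folds, 0.418 and 0.361, were below 1, so a listed site need not have more read starts in the IP.

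**Figure D1:**
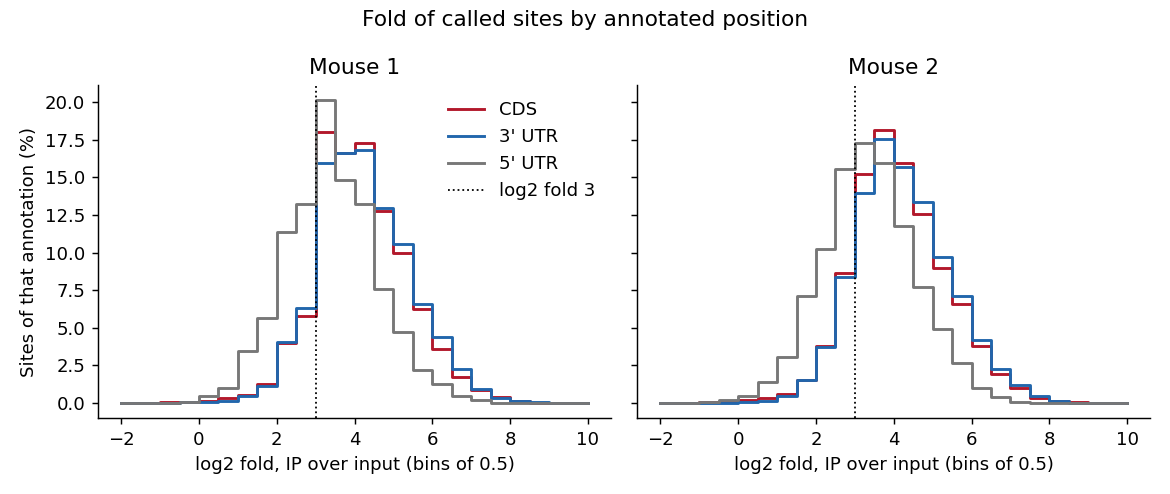
Share of sites in each bin of 0.5 on the log2 fold scale (IP over input), for sites annotated as CDS, 3' UTR and 5' UTR in mouse 1 and mouse 2; the dotted line is log2 fold 3. The CDS and 3' UTR curves lie on each other and the 5' UTR curve lies at lower folds, with median CDS folds of 17.0 and 16.4.

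Many sites sat exactly at the limit. The folds are mostly steps of a constant of each table, 1.003 and 0.963, and 69.3% and 68.8% of the CDS folds were whole multiples of it within 1e-06. The step of 8 became 8.02 in mouse 1, where 526 CDS sites passed, and 7.70 in mouse 2, where 548 CDS sites did not. The nearest folds under the limit were 7.97 and 7.99, and the nearest at or over it 8.02 in both tables. With the limit set on the steps themselves the shares were 87.7% and 87.8%, so the gap between the animals went with the constant.

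Of the CDS sites of mouse 1, 14878 (83.6%, 83.0% to 84.1%) had a listed site on the identical base in mouse 2. In the other direction it was 14892 (80.1%, 79.5% to 80.7%). Over all listed sites the shares were 83.4% and 79.8%, and over 3' UTR sites 85.9% and 80.7%, so CDS sites were near the general level. The second annotation was another one for 310 sites named CDS in one table only, most often a distal intron (78 and 84). Sharing rose with the score. With the CDS sites of a table in 5 equal groups by score, 51.5% and 44.6% of the lowest group were shared. In the highest group the shares were 3560 of 3560 and 99.6%. The 2923 and 3704 CDS sites listed in 1 mouse had median scores of 14.96 and 15.9, against 39.5 and 41.6 for shared ones, and 5.03% and 4.56% of them had a site of the other mouse within 5 bases.

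**Figure D2:**
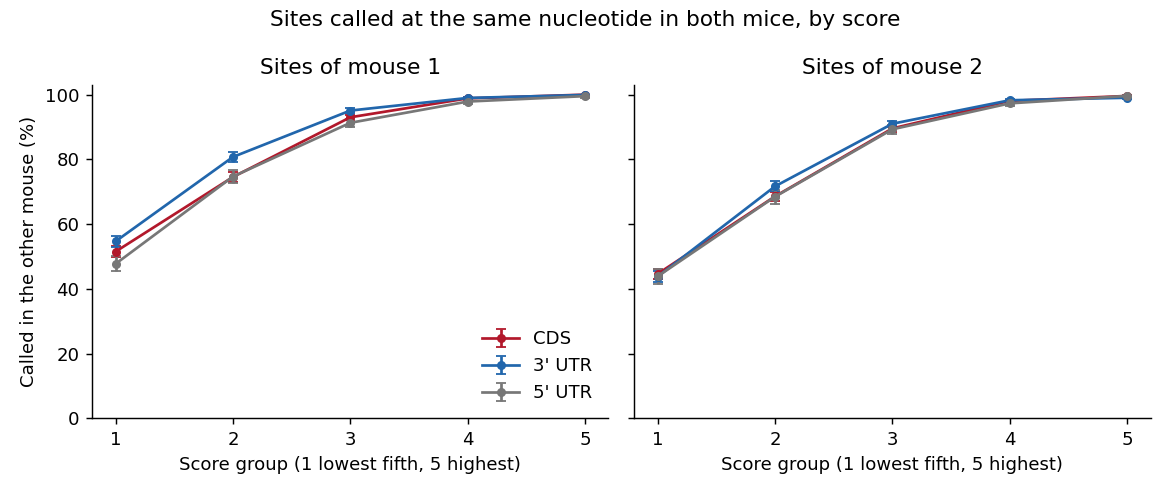
Share of the sites of each mouse that were listed at the same nucleotide in the other mouse (y axis, percent), for 5 equal groups of the sites by score (x axis, lowest first), with exact 95% intervals as bars. CDS sites rise from 51.5% and 44.6% in the lowest group to nearly all sites in the highest, close to the UTR classes.

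At the 14730 sites named CDS in both tables, the log2 folds of the mice correlated with Pearson's r = 0.72 and Spearman's rho = 0.69, given as a description across sites that share 2 animals and 4 libraries. The median absolute difference was 0.54 on the log2 scale, close to 0.59 for 3' UTR sites, and 385 CDS sites (2.61%) differed more than 4 times. The scores were closer, with r = 0.83 on the log scale. Genes whose strongest shared CDS site differed most included Puf60, a splicing factor gene (21.3 and 209.9), the DNA repair gene Apex1 (8.45 and 70.3), Stat5a (9.86 and 73.2) and Cptp, a ceramide-1-phosphate carrier gene (3.68 and 26.0), and these were higher in mouse 2. The scores of the Stat5a site were 23.1 and 22.5, so there the score moved little while the fold moved more than 7 times.

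In both mice together, 12308 CDS sites were enriched. The 12253 with 1 gene name belonged to 3335 genes, which is 42.6% of the 7827 that had any listed site in both mice. Of these genes 1185 carried 1 such site, 1311 carried 2 to 4, 601 carried 5 to 9 and 238 carried 10 or more. The 238 site-rich genes were 7.14% of the genes and held 29.7% of the sites. A 3' UTR site enriched in both mice was also found in 1756 of the 3335 genes (52.7%) and a 5' UTR site in 853 (25.6%), while 1239 (37.2%) had no such UTR site. Any site enriched in both mice was found in 6798 genes, and 2095 of these had a 3' UTR site and no CDS site of this kind. These overlaps were not tested against all genes, so they are not read as a trait of genes with CDS sites.

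By mean log2 fold the strongest CDS site was in Helz2, whose product is a helicase induced by interferon, at 181235069 of chromosome 2 (572 and 639). Plec, which links intermediate filaments to other parts of the cytoskeleton, followed on chromosome 15 at 76177870 (516 and 454). Both were high in both animals. The atypical MAP kinase gene Mapk6 (chromosome 9 at 75398105, 223 and 522) and Erp29, of protein folding in the endoplasmic reticulum (chromosome 5 at 121445212, 293 and 385), were higher in mouse 2. The adhesion gene Pcdh7 (chromosome 5 at 57720585) had folds of 361 and 305.

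Etv3, which encodes an ETS-family repressor, had the highest CDS fold of mouse 1 on chromosome 3 at 87535688 (659), with 164 in mouse 2. Its scores there, 156 and 158, were close. The zinc finger factor gene Klf6 (chromosome 13 at 5864969, 209 and 453), Dhx58, which encodes the RIG-I-like receptor LGP2 (chromosome 11 at 100695161, 203 and 467), and the cholesteryl ester hydrolase gene Nceh1 (chromosome 3 at 27241307, 193 and 430.4) were more than 2 times higher in mouse 2. Slfn9, a Schlafen family gene, had 259 and 311 on chromosome 11 at 82982622. No read numbers stand behind these folds, so their order carries no error.

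Some genes carried CDS sites in long runs. Ahnak, which encodes a giant scaffold protein and is known for a single very long coding exon, had 91 CDS sites enriched in both mice over 16517 bases of chromosome 19 (9001781 to 9018297), at a median spacing of 108.5 bases. Their folds ran from 8.02 to 460.3 in mouse 1 with a median of 28.1, and from 8.35 to 167 in mouse 2 with a median of 26.6. Ahnak's strongest site by mean, at 9016955, was 460.3 in mouse 1 and 86.5 in mouse 2. Plec had 63 sites over 8976 bases (median folds 39.1 and 37.6), and Helz2 had 57 over 13158 bases (35.7 and 34.0) with 2131 bases as the widest gap. The ubiquitin ligase gene Rnf213 had 55 sites with median folds of 41.3 and 45.3, its strongest by mean being on chromosome 11 at 119436290 (318 and 136). Of these, 54 lay within 34482 bases and the last followed after a gap of 42772. The splicing scaffold gene Son had 41 with medians of 23.6 and 27.0, its strongest being on chromosome 16 at 91656576 (149 and 131), and 40 of them lay within 4992 bases of a span of 23424.

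In Ahnak 91 of its 93 sites enriched in both mice lay in coding sequence, and in Son 41 of 46. The strongest CDS site lay late in the run of sites in Ahnak, was the last in Cd180 and lay before the middle in Plec and Helz2, so the runs had no common shape.

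**Figure D3:**
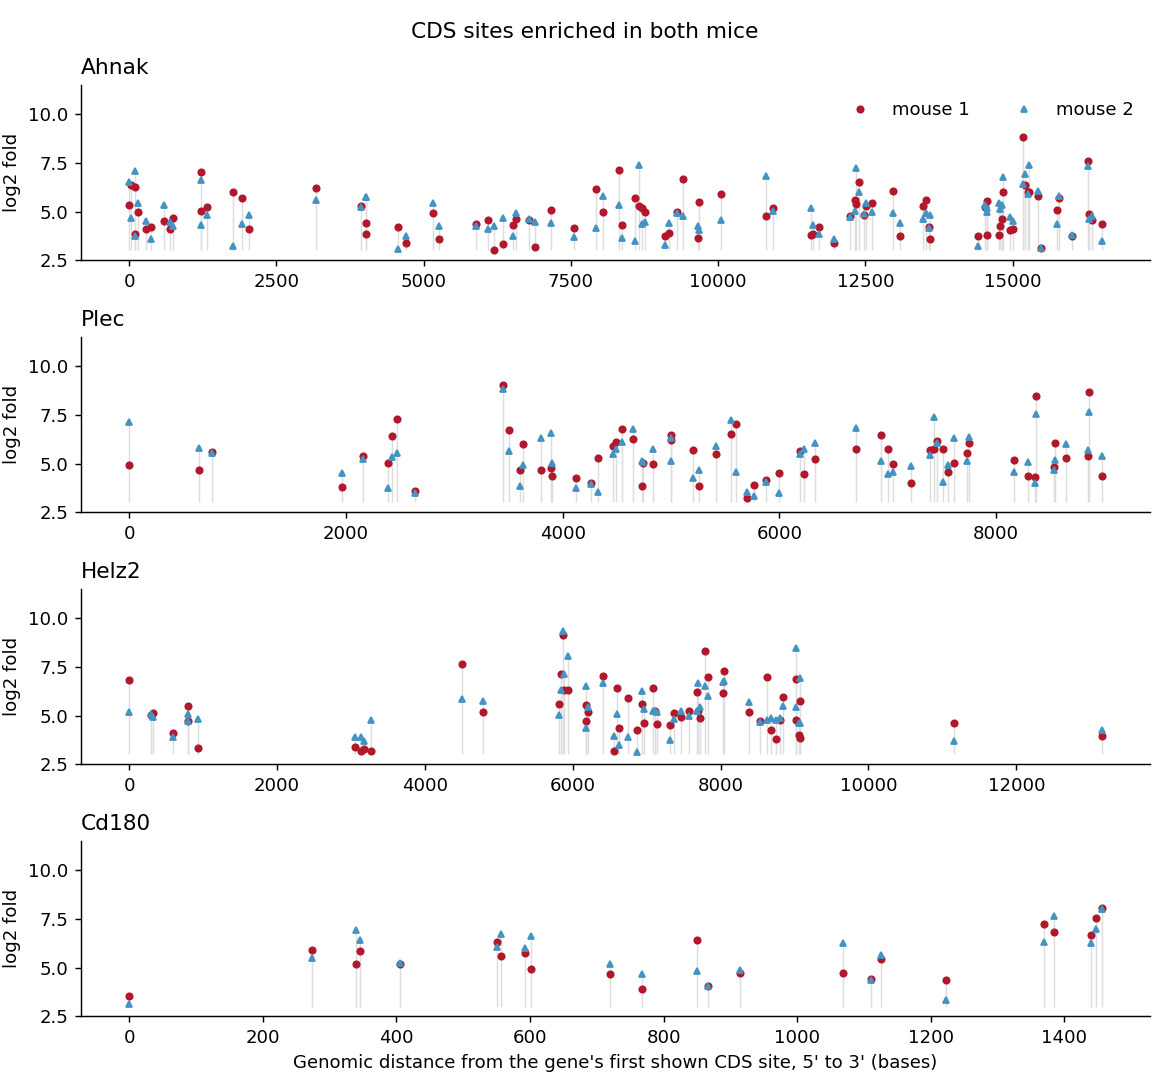
CDS sites enriched in both mice in Ahnak, Plec, Helz2 and Cd180, at their genomic distance in bases from the gene's first such site, 5' to 3' (x axis, introns included), with the log2 fold of mouse 1 (circles) and mouse 2 (triangles) on the y axis. The 91 sites of Ahnak spread over 16517 bases, while the 23 of Cd180 lie within 1457 bases.

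The distances between neighbouring CDS sites of a gene were more often multiples of 3 than those between 3' UTR sites. Coding sequence is read in codons of 3 bases, and the distance between neighbouring CDS sites at most 99 bases apart was a multiple of 3 in 3088 of 7683 pairs of mouse 1 (40.2%, 39.1% to 41.3%) and in 3287 of 8230 of mouse 2 (39.9%, 38.9% to 41.01%). Among 3' UTR neighbours the shares were 32.7% (31.6% to 33.9%) of 6431 pairs and 33.1% (32.0% to 34.2%) of 7084, close to the 33 in 99 distances that are multiples of 3. The gap between CDS and 3' UTR sites was 7.46 points in mouse 1 and 6.82 in mouse 2, while the animals differed by under 1 point. The CDS share was above the 3' UTR share at each range of distance from 6 bases on. From 6 to 23 bases 41.2% and 41.2% of CDS distances were multiples of 3, from 24 to 50 bases 42.0% and 41.7%, from 51 to 74 bases 41.2% and 40.5% and from 75 to 98 bases 41.8% and 40.9%. The 3' UTR shares in these ranges lay between 32.9% and 35.0%. Among 5' UTR neighbours the shares up to 99 bases were 33.002% and 33.29%, but in the same ranges from 6 bases on they lay between 34.2% and 44.3%. At 75 to 98 bases in mouse 2 the 5' UTR share (44.3% of 79 pairs, 33.1% to 55.9%) was above that of CDS, but its interval includes 1 in 3. Each range begins at a multiple of 3 while 5' UTR pairs grew fewer with distance, so 1 in 3 is not an exact baseline there. Among 5' UTR pairs, 5 of 19 multiples of 3 in mouse 1 and 7 of 19 in mouse 2 occurred more often than both neighbouring distances. In CDS it was 17 and 18 of 19.

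A distance of 15 bases, which is 5 codons, occurred 162 and 168 times, while 14 and 16 bases occurred 100 and 93 times in mouse 1 and 106 and 97 times in mouse 2. Distances of 3 bases were rare (36 and 44 pairs). The spacing of the Egln1 sites printed above, 12 bases, is such a multiple. By gene the split over the 3 frames varied. In Ahnak the 91 sites fell as 49, 33 and 9, in Plec as 36, 15 and 12, in Rnf213 as 31, 15 and 9 and in Helz2 as 28, 16 and 13. It was nearer to even in Son with 17, 13 and 11, in Cd180 with 9, 9 and 5 and in Tlr2 with 8, 8 and 6, while Tlr7 had 11, 7 and 4. Introns can shift the frame in such counts. Whether any place of the codon was favoured could not be read without the coding frame, and was not tested.

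**Figure D4:**
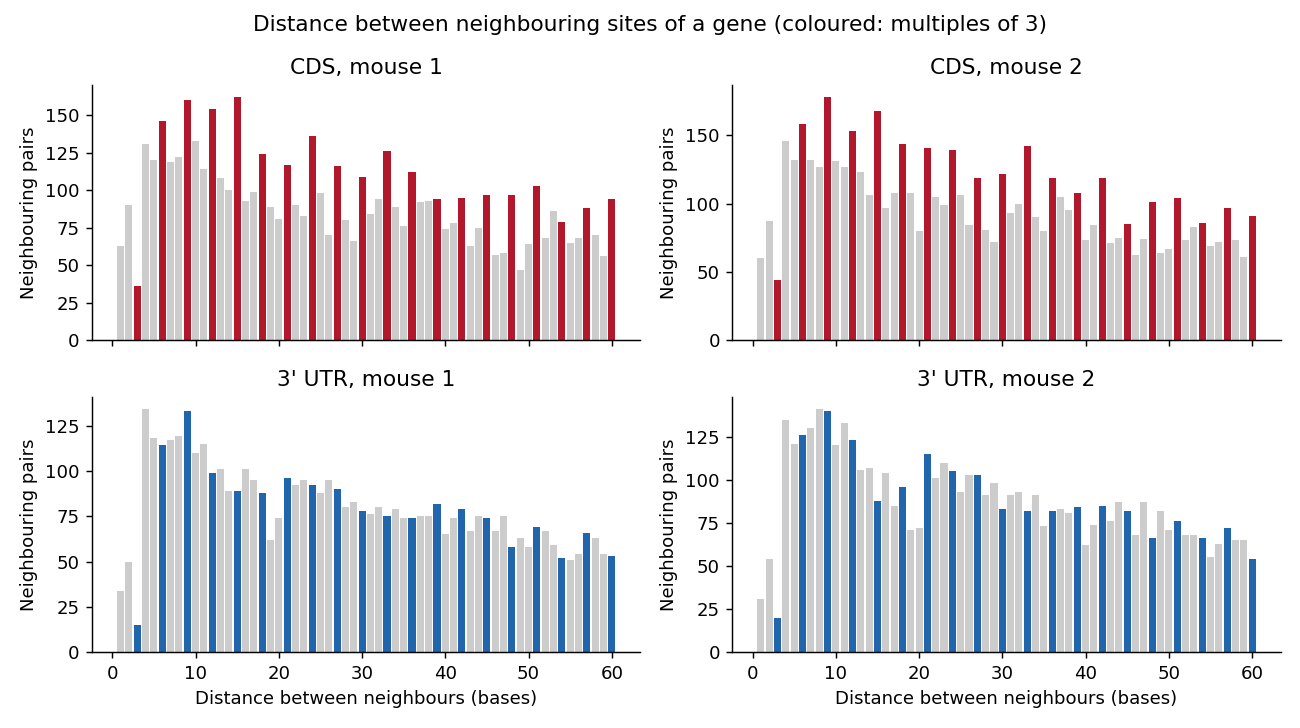
Number of neighbouring pairs of sites of a gene (y axis) at each distance from 1 to 60 bases (x axis), for CDS sites (upper row) and 3' UTR sites (lower row) of mouse 1 and mouse 2, with multiples of 3 coloured. In CDS 17 of 19 coloured bars in mouse 1 and 18 of 19 in mouse 2 stand above both grey neighbours, as at 15 bases with 162 and 168 pairs but not at 3 bases, against 6 of 19 in the 3' UTR of either mouse.

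Over the genes with both kinds of site, the strongest CDS site and the strongest 3' UTR site had similar median folds, while single genes often differed in either direction. This comparison sets 2 parts of the same transcript against each other. Of 2532 genes of mouse 1 with both kinds of site, the CDS site was higher in 1289 and the 3' UTR site in 1205, and of 2586 of mouse 2 in 1302 and 1257. In genes with equal numbers of sites of both kinds the CDS site was higher in 44.2% (mean of the mice), so the order turned with the number of sites. The median log2 difference over all these genes was 0.06 and 0.04. Its quartiles were -0.94 and 1 in mouse 1 and -1 and 1.07 in mouse 2, so the middle of the distribution was wide. In the 2225 genes with both kinds in both mice, the CDS site was higher in both animals in 886 and the 3' UTR site in 808. In the other 531 neither was higher in both animals. Against the strongest 5' UTR site the CDS site was higher in 71.3% of 1795 genes and 71.0% of 1835, with a median log2 difference of 1.07 in mouse 1 and 1 in mouse 2.

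The place of the CDS sites in the genomic span of their gene lay between both UTRs. By RefSeq gene borders their median place was 77.3% and 77.8% of the way from the 5' end, introns included, and 30.1% and 30.4% of them lay in the last 10% of the span. The first 10% held 6.56% and 6.59%. No stop codon positions were used here, so nearness to the stop codon was not measured.

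Gene lists of the macrophage programme differed widely in how far their sites were coding. The site counts given below per list and per gene are of sites enriched in both mice, not of all listed sites. The share of the sites enriched in both mice that lay in CDS was 43.0% over all genes (12253 of 28479), and the share of genes with such a CDS site was 42.6% of those with any listed site. The coding length of the genes was not available here, and its part in these shares was not tested. The lists were chosen with earlier results of these data known, so their shares are a description beside all genes and not a test.

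Among genes of Toll-like receptor signalling, 24 of 31 carried a CDS site enriched in both mice (77.4%), and 230 of their 318 sites lay in CDS (72.3%). Cd180, which encodes a receptor relative that restrains the LPS response, had 23 CDS sites within 1457 bases, with a highest fold of 266 and 256. Its lowest folds were 11.4 and 8.67 and its medians 42.8 and 63.7. The receptor genes Tlr7, for single-stranded RNA (287 and 165), and Tlr2, for lipoproteins (196 and 165), had 22 each, and Tab2, which links TRAF6 to the kinase TAK1, had 13 (143 and 143). Among the 7 without a CDS site of this kind were the adaptor genes Myd88 and Ticam2 and the kinase gene Map3k7, which encodes TAK1.

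NF-kB subunits and feedback inhibitors were alike in the share of genes, 28 of 36 (77.8%), and had 160 of 306 sites in CDS (52.3%). Dusp16, a phosphatase gene that acts on JNK and p38, was highest (169 and 187). Birc3, a ubiquitin ligase gene of TNF receptor signalling (75.6 and 258), was higher in mouse 2, and the deubiquitinase gene Tnfaip3 (108 and 149) and the cytokine signalling inhibitor gene Socs3 (107 and 149.9) followed. Nfkbia, which encodes the inhibitor IkB alpha, Nfkb2 and Bcl3 had no CDS site of this kind.

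In the inflammasome and cell death list, 21 of 27 genes carried one (77.8%), with 145 of 232 sites in CDS (62.5%). Nlrp3, the sensor of the best-known inflammasome, had 21 of its 22 sites enriched in both mice in coding sequence (162 and 208). Birc3, given above, is also in this list. Cflar, which encodes the caspase-8 regulator c-FLIP, had 7 (117 and 136), and Nlrc5, a regulator of MHC class I, had 18 (225 and 61.9). The effector genes Casp1, Casp4, Ripk3 and Mlkl had none.

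Of 70 interferon-stimulated genes, 54 (77.1%) carried a CDS site enriched in both mice, and 513 of 774 sites were coding (66.3%). After Helz2 and Dhx58 the highest were Xaf1, a pro-apoptotic factor gene with 1 such site (191 and 306), and Ifit1, which binds foreign RNA ends (218 and 246), with 9. Helz2 and Rnf213 alone gave 112 of the 513. The median log2 fold of the strongest CDS site was 6.14 in this list, against 4.76 over all genes. It was 5.94 in the inflammasome and cell death list and 5.89 in the NF-kB list. Each list with such sites was above 4.76 except the lymphocyte markers (4.18). The parts of transcript level and of the number of sites per gene in these medians were not tested. Irf1, Irf7, Mx1 and Mx2 were among the 16 with listed sites and no CDS site of this kind.

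Immediate-early and inducible factors had the highest share of genes, 27 of 33 (81.8%), at an ordinary share of coding sites, 119 of 268 (44.4%). After Etv3 and Klf6 came Btg1, an antiproliferative gene (127 and 245), and Jun, an AP-1 subunit gene (321 and 89.3) with 5 of 21 sites in CDS. Egr1, Hif1a and Ier3 had no CDS site of this kind.

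Cytokines, macrophage identity genes and lysosomal genes were low in coding sites. Of the cytokine and chemokine list 12 of 33 genes (36.4%) carried one, and 38 of 145 sites were coding (26.2%). Tnfsf9, the ligand of the costimulator 4-1BB (85.9 and 219), and the macrophage growth factor gene Csf1 (83.2 and 168) had 7 each, Tnf had 3 of 9 (105 and 85.3) and Tgfb1 had 2 of 12 (61.7 and 134). None was found in Il6, Il10, Il12b, Il1rn, Ccl2, Ccl3, Ccl4, Cxcl1 or Cxcl2.

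Of 46 macrophage identity genes 21 carried one (45.7%), near the share over all genes, with 70 of 257 sites (27.2%). Leading were the lineage factor genes Maf (131 and 177), Cebpb (97.1 and 198) and Tfec (76.7 and 184) and the mannose receptor gene Mrc1 (152 and 49.4). In lysosome, autophagy and lipid handling 12 of 30 genes (40.0%) carried one, with 25 of 109 sites (22.9%). These included the acid lipase gene Lipa (74.6 and 82.4), Ctsa, Atg2a, of autophagosome growth (75.2 and 29.4), and the cholesterol exporter gene Abca1 (44.1 and 44.3), with 3 of 13 sites in CDS.

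**Figure D5:**
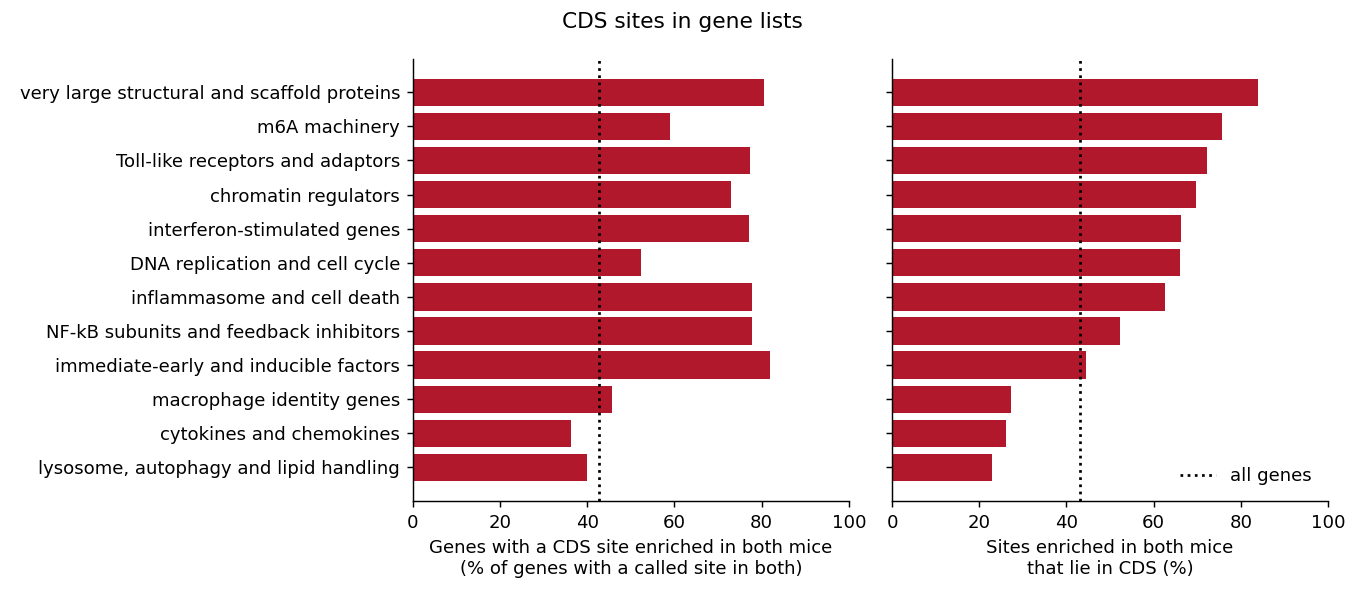
Left, share of the genes of each list with a listed site in both mice that carried a CDS site enriched in both; right, share of the list's sites enriched in both mice that lay in CDS (both in percent, lists with at least 20 such sites, dotted line for all genes at 42.6% and 43.0%). Very large proteins (84.0%) and the m6A machinery (75.6%) are highest on the right, and lysosomal genes (22.9%) lowest.

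The m6A machinery had mostly coding sites, 90 of 119 (75.6%), in 13 of 22 genes (59.1%). Its reader gene Ythdf1 had all 15 of its sites enriched in both mice in coding sequence (142 and 175). Ythdf2, whose product speeds mRNA decay, had 14 of 16 (52.1 and 59.7). Rbm15, which guides the writer complex, had 9 of 9 (59.2 and 62.6), and Prrc2a, also described as a reader, had 15 of 16 (78.2 and 72.2). The mice were close at each of these 4 sites. The binding protein genes Hnrnpc, Hnrnpa2b1, Elavl1 and Fmr1 and the nuclear reader gene Ythdc1 had no CDS site of this kind.

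Of 48 chromatin regulators 35 carried one (72.9%), with 236 of 339 sites in CDS (69.6%). The remodeller gene Chd7 had 15 of 16 (155 and 158), the BAF subunit gene Arid1b 11 of 11 (83.2 and 91.5), the acetyltransferase gene Crebbp 4 of 4 (88.2 and 78.0) and Setd5 11 of 13 (79.2 and 84.7). Smarca4, Chd4 and Kmt2c had no CDS site of this kind. Of the 31 very large structural and scaffold proteins 25 carried one (80.6%), with 320 of 381 sites in CDS (84.0%). The splicing scaffold gene Srrm2 had 13 of 13 (117 and 83.1), while Myh9, Tln1, Dst and Ubr4, also long, had listed sites and no CDS site of this kind.

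Replication and cell cycle genes split by member. Of 21 genes 11 carried one (52.4%), and 62 of 94 sites were coding (66.0%), 38 of them in the proliferation marker gene Mki67 (51.6 and 56.3). E2f1 (147 and 147), E2f3 (71.2 and 40.9) and the p53 ubiquitin ligase gene Mdm2 (76.2 and 87.6) led, while Mcm2, Mcm3, Mcm4, Mcm5 and Mcm6 of the replicative helicase had listed sites and none of this kind.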

How the data were processed

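The authors deposited 1 table of called sites per mouse, not pooled, with 1 base, strand, gene and annotation per row. Per the file headers, each row has a score by the authors, whose definition was not given in the sources used here, and a deposited ratio (fold) of read starts, IP over input within a mouse. Tools listed in the submitters' processing notes are STAR 2.6.0c, cutadapt 2.7 and UMI-tools 0.5.1, with the builds mm10 and hg38. For the caller of sites and for the annotation, names were not given in the sources used here, and the depth is unknown.

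CDS rows were kept per mouse and matched on chromosome, end and strand. The end was taken as the 1-based position. Sites with several joined gene names (82 and 87 CDS sites) were left out of counts per gene. Distances are between neighbouring sites of a gene, up to 99 bases. DRACH was read from RefSeq promoter windows, since the planned reading from a genome could not be run.

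The members and gene lists were chosen with earlier results of these data known. Genes named are the 10 whose strongest CDS site enriched in both mice had the highest mean log2 fold, the 5 with most such sites, the 4 highest of each of 15 lists and the 5 with the largest difference between mice. Predicted genes were left out, and a gene chosen by this rule is not reported here. Genes named as lacking such sites, Mertk and Fcgr1, the distances in multiples of 3 and the sequences shown were chosen after their values were seen. Distances were checked on simulated positions, and the reading of windows against the sequence of the same windows. Python 3.11.15, pandas 2.3.3, NumPy 2.4.6, SciPy 1.17.1 and Matplotlib 3.10.9 were used.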

Additional observations from a re-analysis of the deposited data

How the results depend on the processing

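Each share is given as the mean of the 2 mice. The share of CDS sites that were enriched, 86.2%, became 52.2% at log2 fold 4, 99.4% at log2 fold 1, 97.4% for sites with a score at or above their table's median and 89.9% with the strongest CDS site of each gene, and each mouse alone gave 84.7% to 87.7%. The share called in both mice, 81.8%, became 97.9% for sites with a score at or above the median, and each mouse alone gave 80.1% to 83.6%. It moved by less than the gap between the mice when sites within 5 bases counted as shared (82.7%) or when both tables had to say CDS (81.0%). The share of genes with a higher CDS than 3' UTR site, 50.6%, fell to 48.3% with median folds and to 44.2% in genes with equal numbers of sites, where the CDS site was the higher one in a minority. Each mouse alone gave 50.3% to 50.9%.

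DRACH matches, 26.1%, became 23.3% for the narrower motif RRACH, 31.9% with the motif within 2 bases, 32.4% in enriched sites and, chosen after seeing the data, 58.4% away from starts; each mouse alone gave 25% to 27.2%. The share of distances in multiples of 3 was also examined after seeing the data. It was 40.1%, and 39.5% up to 48 bases, 41.4% from 6 to 98 bases, 41.3% for sites enriched in both mice and 40.2% without the genes with 10 or more such sites, and each mouse alone gave 39.9% to 40.2%. At log2 fold 4 the number of genes with a CDS site stayed within 1.5 times in 14 of 15 lists, the exception being lymphocyte markers, where 1 of 2 was left. No paired analysis was possible because each deposited fold already sets the IP against the input of the same mouse and no values per library were used.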

Other observations

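Of the markers of other cell types with a listed site in both mice, 2 of 4 lymphocyte markers, 1 of 2 markers of fibroblasts, endothelium and erythroid cells and 0 of 6 markers of neutrophils and mast cells carried a CDS site enriched in both, beside 42.6% of all genes. Of the lymphocyte list, Lck, the kinase of T cell receptor signalling, had 1 CDS site enriched in both mice (30.1 and 17.8), and the costimulator gene Cd28 had 1 (11.03 and 18.3). Vwf, a clotting factor gene of endothelium, had 3, the strongest with 40.1 and 40.4. All 8 sites of the neutrophil and mast cell markers enriched in both mice lay in 5' UTRs.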
